A study of Mus musculus with 9 samples.

Results

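The genes described here are brakes on cell growth, together with genes that act on them or respond to them. They are the tumour suppressor gene Trp53 with its regulators and targets, the inhibitors of cyclin-dependent kinases (CDKs), and the GADD45 family. They were chosen by name, as 10 gene symbols, with earlier results of these data known. The deposited table lists 9 of them among 10762 genes: Trp53, Mdm2, Trp53inp1, Ccng1, Cdkn1a, Cdkn1b, Cdkn2d, Gadd45a and Gadd45b. Gadd45g was not analysed here. Messenger RNA was sequenced from B16.SIY, a melanoma cell line from C57BL/6 mice with a SIYRYYGL (SIY) antigen tag fused to dsRED. All lines were infected with shRNA lentivirus and selected with puromycin, so the control lines share the virus and the drug selection with the knockdown lines. There were 3 groups of 3 libraries, numbered 0, 1 and 2 in their titles: a control shRNA (SHC002), Decr2 shRNA1 (TRCN0000042099) and Decr2 shRNA2 (TRCN0000042100). Decr2 encodes a peroxisomal enzyme of unsaturated fatty acid breakdown, and the design asks how gene expression differs when it is knocked down. Whether a stable line was 1 clone or a pool is not stated. Nor is it stated that replicates came from independent cultures, and the tests therefore weigh differences only against library-to-library variation, possibly of technical origin.

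The p53 protein is a transcription factor that is kept scarce by the ubiquitin ligase Mdm2 and that accumulates when DNA is damaged or growth signals conflict. It switches on genes that hold the cell cycle, repair DNA or start cell death, among them Cdkn1a, Trp53inp1, Ccng1, Gadd45a and Mdm2 itself, which closes a negative feedback loop. CDK inhibitors stop the kinases that drive a cell from G1 into S phase: those of the Cip/Kip family, p21 (Cdkn1a) and p27 (Cdkn1b), bind complexes of cyclins and CDKs, and those of the INK4 family, such as p19-INK4d (Cdkn2d), bind Cdk4 and Cdk6. GADD45 proteins are small stress sensors that bind PCNA, the Cdk1 and cyclin B1 complex, and the kinase Map3k4 upstream of p38 and JNK. Several of these genes are also induced without p53, Gadd45a and Cdkn1a among them.

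Because 4 of the genes rose with both hairpins, the DNA before their transcription starts is shown for those with an entry in the RefSeq promoter table (GRCm38.p6). Of the 9 genes, 8 had an entry, and Trp53inp1 had none. Each line below gives the 250 bases before a start, 5′ to 3′ on the strand of the gene. Capitals mark matches to the motifs that were searched: CCAAT, the GC box GGGCGG, the octamer ATTTGCAT, the C/EBP-ATF element TGATGNAA, TATAAA, each on both strands, and the p53 response element, taken as 20 bases made of adjoining 10-base units with intact cores and at most 1 mismatch.
Cdkn1a, upstream start, chr17:29090729-29090978, plus strand: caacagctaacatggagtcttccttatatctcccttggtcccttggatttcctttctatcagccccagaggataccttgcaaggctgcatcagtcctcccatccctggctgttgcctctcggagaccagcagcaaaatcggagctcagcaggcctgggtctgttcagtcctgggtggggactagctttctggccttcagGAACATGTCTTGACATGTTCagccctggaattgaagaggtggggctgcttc
Cdkn1a, downstream start, chr17:29093519-29093768, plus strand: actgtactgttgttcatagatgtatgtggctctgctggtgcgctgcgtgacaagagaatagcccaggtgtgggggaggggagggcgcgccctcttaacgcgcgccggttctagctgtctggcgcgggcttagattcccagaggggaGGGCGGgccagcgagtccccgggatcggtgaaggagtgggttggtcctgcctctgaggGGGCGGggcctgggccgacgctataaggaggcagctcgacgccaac
Gadd45a, chr6:67037408-67037657, minus strand: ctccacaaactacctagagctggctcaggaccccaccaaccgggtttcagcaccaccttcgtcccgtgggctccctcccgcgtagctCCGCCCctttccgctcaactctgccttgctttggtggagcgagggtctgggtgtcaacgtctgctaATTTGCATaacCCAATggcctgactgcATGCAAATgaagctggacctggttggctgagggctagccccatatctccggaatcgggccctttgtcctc
Gadd45b, chr10:80929841-80930090, plus strand: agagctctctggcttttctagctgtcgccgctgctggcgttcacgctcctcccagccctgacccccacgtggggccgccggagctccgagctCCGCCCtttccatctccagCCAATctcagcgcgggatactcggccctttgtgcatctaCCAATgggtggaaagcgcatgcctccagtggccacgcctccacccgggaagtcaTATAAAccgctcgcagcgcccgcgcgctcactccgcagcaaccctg

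The window before the upstream Cdkn1a start held the only p53 element among the 9 windows of these genes, the 20 bases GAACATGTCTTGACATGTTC, which lay 51 to 32 bases before that start. DNA beyond these windows was not searched and Trp53inp1 had no window, so p53 elements elsewhere in or near these genes would not be seen. Over all 32851 promoter windows of the same length, 0.0457% held a p53 element. The motif was chosen with these genes in view and made stricter after its first matches were seen, so this share is no test of the match. The Gadd45a window held an octamer on each strand with a CCAAT box between them, and 1.6% of all windows held an octamer. CCAAT was present in 33.8% of all windows, GGGCGG in 32.7%, TATAAA in 12.4% and TGATGNAA in 3.45%. TGATGNAA was not in these letters for any of the 9 windows. The table of expression has 1 value per gene and does not part the starts of Cdkn1a. The downstream Cdkn1a window lies within an annotated exon of AC167363.2, and the ends of the Gadd45a and Gadd45b windows overlap annotated exons of those genes by 50 and 18 bases. A match is a description of the letters and not a site of binding.

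The deposited values are on a log2 scale. Their powers of 2 summed to between 1014944 and 1045849 in the control libraries. In the hairpin libraries the sums were between 969465 and 997650, so every control total was above every hairpin total. The library medians did not follow this, at 5.349 to 5.366 in the controls and 5.353 to 5.380 in the hairpin libraries. Centring libraries on the median gene therefore does not remove the offset in totals, whose part in the results was not tested. Read depth is unknown, so precision is given by the spread between libraries. Decr2 itself had log2 values between 3.71 and 4.10 in the control libraries, between 2.51 and 3.18 with shRNA1 and between 0.84 and 1.55 with shRNA2, so the labels of all 9 libraries matched its level. The labelled cell type was checked through 9 melanocyte lineage genes, all of which were listed and none of which passed the test. Their summed linear level was 21964 to 25090 in the controls, 15596 to 23932 with shRNA1 and 15789 to 28704 with shRNA2. For other cell types, 1 of 8 lymphoid markers was listed (Lck), 0 of 8 myeloid, 3 of 7 fibroblast and pericyte (Postn, Pdgfrb and Col1a1), 1 of 4 endothelial (Plvap) and 0 of 5 epithelial, with 0 called. Libraries numbered 0 deviated together across groups, apart from the others, so a fit with the replicate number as a block was also made, and its value is given where it changes a call. Genes are called at an adjusted p under 0.05 (limma, Benjamini-Hochberg over all genes), and each difference is on the log2 scale.

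With shRNA1, 4 of the 9 genes rose (Trp53inp1, Cdkn1a, Gadd45a and Gadd45b) and 2 fell (Ccng1 and Cdkn2d). Of all genes tested, 12.4% were called in this comparison, 6.92% higher and 5.49% lower (24.6% with the replicate block). With shRNA2 the same 4 genes rose and 1 fell (Trp53), where 12.9% of all genes were called, 7.27% higher and 5.67% lower (24% with the block). Both comparisons use the same control libraries. Of all genes, 4.54% were called higher with both hairpins and 3.01% lower with both. The median difference of the 9 genes was 0.36 with shRNA1 and 0.35 with shRNA2, beside 0.0018 and 0.0046 over all genes. These genes, and the gene lists further below, were chosen with earlier results of these data known. Their counts and medians beside those of all genes are therefore descriptions and not tests. In 5 of the genes all 6 hairpin libraries lay above all 3 control libraries (Trp53inp1, Cdkn1a, Cdkn1b, Gadd45a and Gadd45b), as in 12% of all genes, and in Trp53 all 6 lay below, as in 10.9%. In the mean of both hairpins 4 of the 9 rose and 1 fell, where 17.6% of all genes were called. Without control replicate 1, 2 genes were called with shRNA1 and 1 with shRNA2, where 3.15% and 3.88% of all genes were called. Without control replicate 2 the counts were 3 and 2, and the shares of all genes 3.05% and 3.77%. The count with shRNA1 was also 3 without shRNA1 replicate 1 (7.02% of all genes called) or 2 (6.02%). The count with shRNA2 was 1 without shRNA2 replicate 1 (4.01%) or 2 (4.38%).

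**Figure D1:**
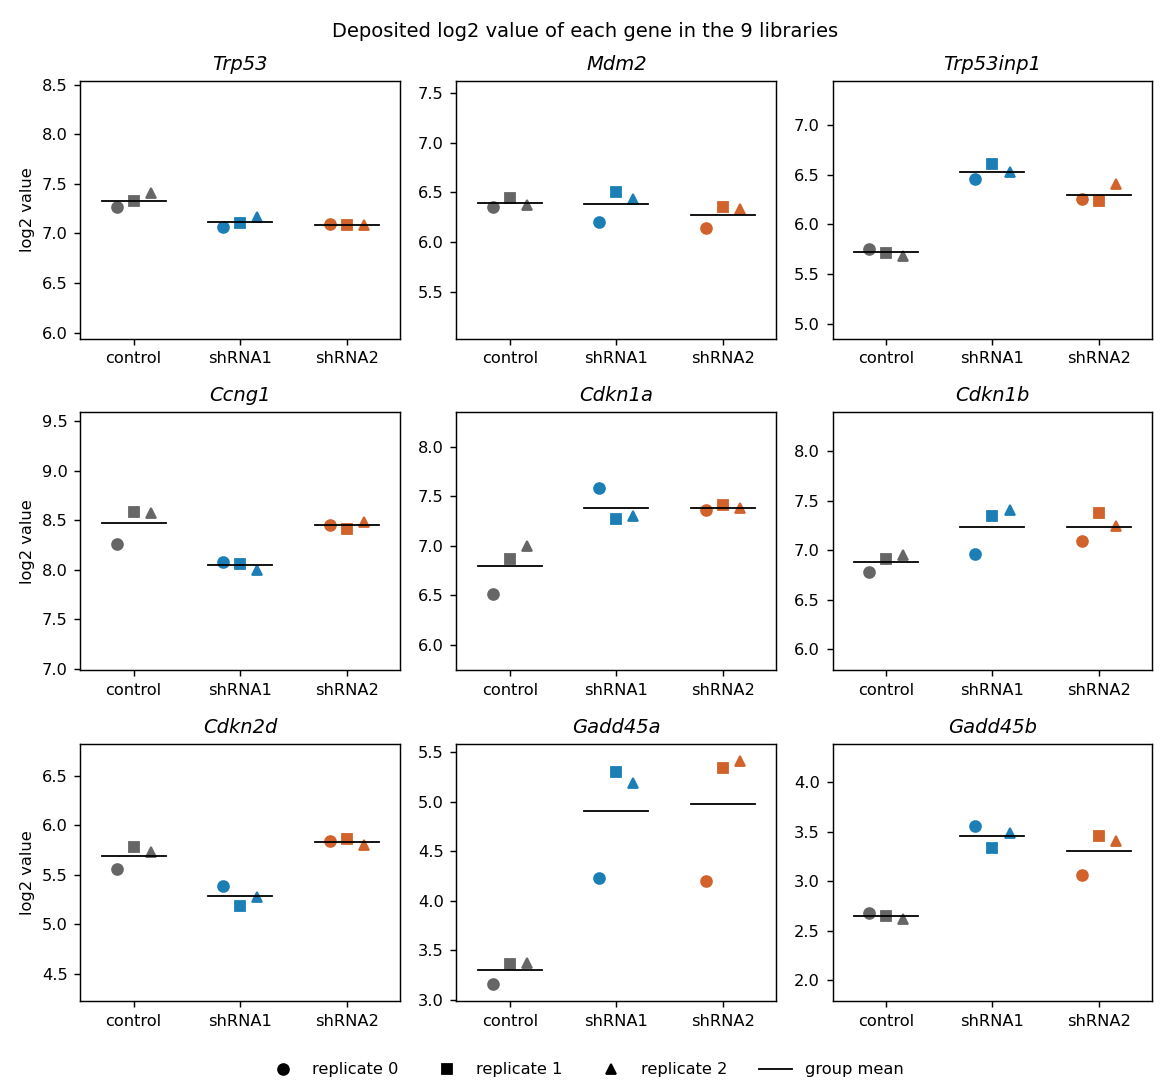
Deposited log2 value (y axis) of the 9 genes in each library, by group (x axis), with the replicate number as the symbol and the group mean as a line; every panel spans the same height in log2 units. Gadd45a shows the widest spread within the hairpin groups, with replicate 0 of each hairpin at 4.23 and 4.20 and the others from 5.18 to 5.41, whereas Ccng1 and Cdkn2d are low in the shRNA1 group alone.

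Gadd45a (ENSMUSG00000036390, GRCm38 chromosome 6, 67035096 to 67037457, minus strand) had the largest change of the 9 genes. Its log2 values were 3.16, 3.36 and 3.37 in control replicates 0, 1 and 2, 4.23, 5.30 and 5.18 with shRNA1, and 4.20, 5.34 and 5.41 with shRNA2. All 6 hairpin libraries were above the controls, and in both hairpin groups the library numbered 0 was the lowest, at -1.01 from the mean of the other two with shRNA1 and at -1.18 with shRNA2. The gene rose by 1.61 with shRNA1 (SE 0.35, adjusted p = 0.0209), a fold change of 3.04 (95% interval 1.76 to 5.26), and by 1.68 with shRNA2 (SE 0.35, adjusted p = 0.0173), a fold change of 3.21 (1.86 to 5.54). Against the control of the same number, the difference was 1.07, 1.94 and 1.81 for shRNA1 and 1.03, 1.98 and 2.03 for shRNA2. Without the 3 libraries numbered 0 the differences were 1.88 and 2.01. The 2 genes with the most similar values over the 9 libraries were Atf5, a transcription factor induced by stress (Pearson r = 0.994), and Rhbdd1, a rhomboid protease (r = 0.991).

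With shRNA1, Gadd45a no longer passed when control replicate 0 was left out (adjusted p = 0.0523), nor without control replicate 1 (0.0726) or 2 (0.0701) and without shRNA1 replicate 1 (0.0632) or 2 (0.0658). With shRNA2 it was lost without control replicate 1 (0.0625) or 2 (0.0601) and without shRNA2 replicate 1 (0.0708) or 2 (0.0657). In the mean of both hairpins Gadd45a was 1.64 higher (SE 0.30, adjusted p = 0.00849) and passed with any single library left out.

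Gadd45b (ENSMUSG00000015312, chromosome 10, 80930073 to 80932204, plus strand), the second family member and an early response gene of NF-kB and stress signalling, rose less. Its log2 values were 2.68, 2.65 and 2.62 in the controls, 3.56, 3.33 and 3.49 with shRNA1, and 3.06, 3.45 and 3.40 with shRNA2. The 3 controls had an SD of 0.029 and lay below every hairpin library. Gadd45b rose by 0.81 with shRNA1 (SE 0.13, adjusted p = 0.0077, 1.75-fold, 95% interval 1.43 to 2.16) and by 0.66 with shRNA2 (SE 0.13, adjusted p = 0.0154, 1.58-fold, 1.28 to 1.94). The call with shRNA1 held with any single library left out. With shRNA2 it was lost without control replicate 1 (0.0607) or 2 (0.063) and without shRNA2 replicate 1 (0.0654) or 2 (0.0652). Its level was in the lowest 13.6% of genes in the table, so it was not tested when the lowest 25% of genes were removed.

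Among the p53 targets, Trp53inp1 (ENSMUSG00000028211, chromosome 4, 11156431 to 11174379, plus strand), a nuclear protein of autophagy and p53-dependent arrest, rose with the smallest p-values of the 9 genes. Its log2 values were 5.75, 5.72 and 5.68 in the controls, 6.45, 6.61 and 6.53 with shRNA1 and 6.25, 6.24 and 6.41 with shRNA2. The 3 groups were apart from each other, with shRNA1 highest and shRNA2 between. The rise was 0.81 with shRNA1 (SE 0.076, adjusted p = 0.00103, 1.76-fold, 95% interval 1.56 to 1.98) and 0.58 with shRNA2 (SE 0.076, adjusted p = 0.00328, 1.5-fold, 1.33 to 1.69). Both calls held in every alternative fit that was run. The difference between the hairpins was -0.23 for shRNA2 over shRNA1 (95% interval -0.40 to -0.058), which did not pass over all genes (adjusted p = 0.319).

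Cdkn1a (ENSMUSG00000023067, chromosome 17, 29090976 to 29100727, plus strand) encodes p21, the inhibitor through which p53 arrests cells in G1. Its log2 values were 6.52, 6.87 and 7.0 in the controls, 7.58, 7.27 and 7.30 with shRNA1, and 7.36, 7.41 and 7.38 with shRNA2. All 6 hairpin libraries lay above the controls, and control replicate 0 was the lowest library while shRNA1 replicate 0 was the highest. Cdkn1a rose by 0.58 with shRNA1 (SE 0.13, adjusted p = 0.0218, 1.5-fold, 95% interval 1.23 to 1.83) and by 0.59 with shRNA2 (SE 0.13, adjusted p = 0.0206, 1.5-fold, 1.23 to 1.84). Against the control of the same number the difference was 1.06 in replicate 0, 0.40 in replicate 1 and 0.29 in replicate 2 for shRNA1, and 0.84, 0.54 and 0.38 for shRNA2. Without the libraries numbered 0 the differences were 0.35 (adjusted p = 0.00318) and 0.46 (adjusted p = 0.000784). With shRNA1, Cdkn1a no longer passed when control replicate 1 was left out (adjusted p = 0.0667) and with only the groups compared (0.06). The call with shRNA2 was lost without control replicate 1 (0.0625) and without shRNA2 replicate 1 (0.0739) or 2 (0.0667).

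Gadd45a and Cdkn1a differed in how they varied with the replicate number. In Gadd45a the difference from control was smallest in the libraries numbered 0, and in Cdkn1a it was largest there. What the number 0 stands for is not given in the labels, and its part in either result was not tested.

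**Figure D2:**
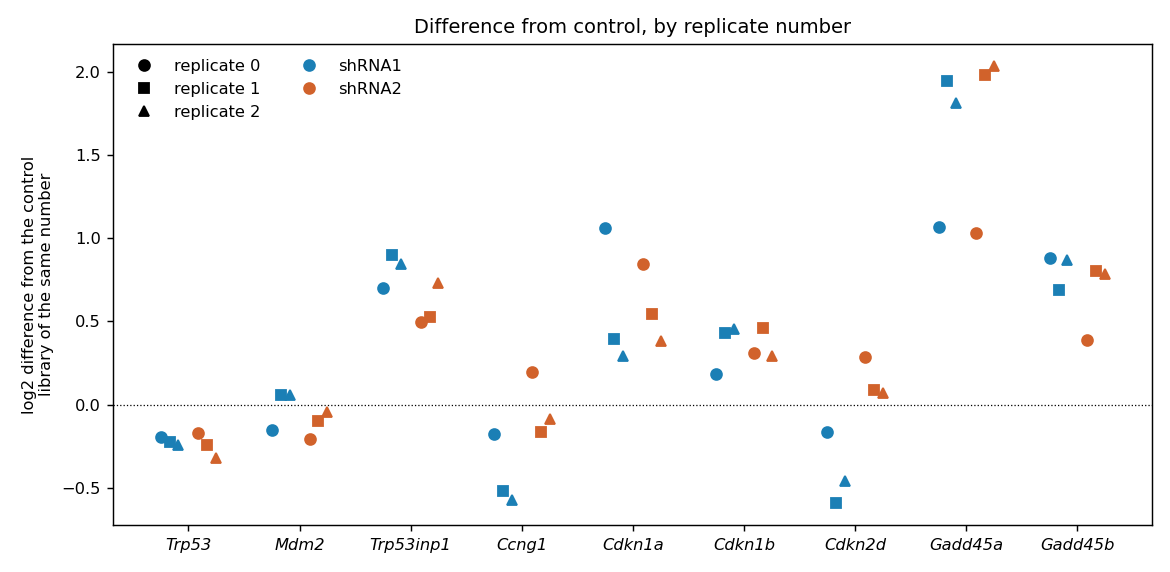
Log2 difference of each hairpin library from the control library of the same number (y axis) for the 9 genes (x axis); colours give the hairpin and symbols the replicate number. For Gadd45a replicate 0 gave 1.07 and 1.03 where the other replicates gave 1.81 to 2.03, and for Cdkn1a replicate 0 gave the largest difference with each hairpin.

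Ccng1 (ENSMUSG00000020326, chromosome 11, 40748552 to 40755311, minus strand), which encodes cyclin G1, a p53 target that recruits a phosphatase to Mdm2, went down with shRNA1. Its log2 values were 8.26, 8.58 and 8.57 in the controls, 8.08, 8.06 and 8.0 with shRNA1, and 8.46, 8.42 and 8.49 with shRNA2. The shRNA1 libraries lay below all others, and the shRNA2 libraries lay within the control range. Ccng1 fell by 0.42 with shRNA1 (SE 0.092, adjusted p = 0.0209, 0.747-fold, 95% interval 0.647 to 0.862). With shRNA2 the difference was -0.017 (95% interval -0.22 to 0.19, adjusted p = 0.929). The shRNA2 lines stood 0.41 above the shRNA1 lines (95% interval 0.20 to 0.61), which missed the threshold (adjusted p = 0.133) and passed without control replicate 0 (0.0476) and without the libraries numbered 0 (0.00248). The call with shRNA1 was lost without control replicate 1 (0.0946) or 2 (0.0947), in the fit of the 2 groups alone (0.0571), and without shRNA1 replicate 1 (0.0528) or 2 (0.0669).

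Trp53 and its ligase Mdm2 showed small differences. Trp53 (ENSMUSG00000059552, chromosome 11, 69580359 to 69591873, plus strand) had log2 values of 7.27, 7.32 and 7.41 in the controls, 7.07, 7.10 and 7.16 with shRNA1, and 7.10, 7.08 and 7.09 with shRNA2. Every hairpin library was below every control. Trp53 mRNA fell by 0.24 with shRNA2 (SE 0.065, adjusted p = 0.0404, 0.844-fold, 95% interval 0.763 to 0.935). With shRNA1 the difference was -0.22 (SE 0.065), which missed the threshold (adjusted p = 0.0569). The replicate block brought it past the threshold (0.0309), and so did fits with libraries centred on the median gene (0.0424) and without the libraries numbered 0 (0.013). The call with shRNA2 was lost without control replicate 1 (0.125) or 2 (0.162), without shRNA1 replicate 1 (0.0579) or 2 (0.0605), without shRNA2 replicate 0 (0.0749), 1 (0.117) or 2 (0.119), and with no intensity trend (0.0561). In the mean of both hairpins Trp53 fell by 0.23 (SE 0.056, adjusted p = 0.0227), a call lost without control replicate 1 (0.0928) or 2 (0.13) and without shRNA2 replicate 1 (0.0504) or 2 (0.0524). Over the 9 libraries the values of Trp53 were most like those of Pwp1, a ribosome biogenesis factor (Pearson r = 0.976), and Mcm5, a subunit of the replicative helicase (r = 0.973).

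Mdm2 (ENSMUSG00000020184, chromosome 10, 117688875 to 117710758, minus strand) had log2 values of 6.35, 6.45 and 6.37 in the controls, 6.20, 6.50 and 6.43 with shRNA1, and 6.14, 6.35 and 6.33 with shRNA2. The shRNA1 libraries lay on both sides of the controls, and all 3 shRNA2 libraries lay below them, the highest (6.349) just under the lowest control (6.351). The difference from control was -0.012 with shRNA1 (95% interval -0.23 to 0.20, adjusted p = 0.949) and -0.12 with shRNA2 (95% interval -0.33 to 0.0999, adjusted p = 0.466). These intervals leave a fold change between 0.854 and 1.15 for shRNA1 and between 0.794 and 1.07 for shRNA2.

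The other CDK inhibitors did not follow Cdkn1a alike. Cdkn1b (ENSMUSG00000003031, chromosome 6, 134920401 to 134925513, plus strand), which encodes p27, had log2 values of 6.78, 6.91 and 6.96 in the controls, 6.96, 7.35 and 7.41 with shRNA1, and 7.09, 7.37 and 7.25 with shRNA2. All hairpin libraries were above the controls, although shRNA1 replicate 0 (6.962) barely exceeded control replicate 2 (6.956), and the libraries numbered 0 were the lowest of each group. Its difference from control was 0.36 with shRNA1 (SE 0.13, adjusted p = 0.0984) and 0.35 with shRNA2 (SE 0.13, adjusted p = 0.0966), neither of which passed. With the replicate block both passed (adjusted p = 0.0126 and 0.013), as did the mean of both hairpins, at 0.36 (0.00545 against 0.0516 with no block). Leaving out shRNA1 replicate 0 also gave calls, with shRNA1 (0.0119), with shRNA2 (0.0188) and in the mean (0.00586), and leaving out shRNA2 replicate 0 gave one in the mean (0.0437). With shRNA2 it passed with only the groups compared as well (0.0362). Without the libraries numbered 0 the differences were 0.44 and 0.38 (adjusted p = 0.00109 and 0.00208). The genes most like it over the 9 libraries were Iars2, the mitochondrial isoleucyl-tRNA synthetase (Pearson r = 0.995), and Guf1, a mitochondrial translation factor (r = 0.984).

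Cdkn2d (ENSMUSG00000096472, chromosome 9, 21288410 to 21291407, minus strand), the INK4 member, separated the hairpins. Its log2 values were 5.56, 5.78 and 5.73 in the controls, 5.39, 5.19 and 5.27 with shRNA1, and 5.84, 5.86 and 5.80 with shRNA2. All shRNA1 libraries lay below all controls and all shRNA2 libraries lay above them. It fell by 0.40 with shRNA1 (SE 0.086, adjusted p = 0.0194, 0.756-fold, 95% interval 0.661 to 0.864), and with shRNA2 the difference was 0.15 (95% interval -0.046 to 0.34, adjusted p = 0.292). The call with shRNA1 was lost without control replicate 1 (0.0872) or 2 (0.0833), in the fit of the 2 groups alone (0.0565), and without shRNA1 replicate 1 (0.0598) or 2 (0.0575). The genes most like Cdkn2d over the 9 libraries were Mcoln3, a lysosomal cation channel (Pearson r = 0.949), and Hgsnat, a lysosomal acetyltransferase (r = 0.940).

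Compared directly, the hairpins differed in 1 of the 9 genes, where 0.455% of all genes were called, 0.223% higher with shRNA2 and 0.232% lower (1.87% with the replicate block). Cdkn2d was 0.55 higher with shRNA2 than with shRNA1 (SE 0.086, 95% interval 0.36 to 0.74, adjusted p = 0.0378), a fold change of 1.47. This call was lost with only the groups compared (0.116), without control replicate 1 (0.0773) or 2 (0.095), without shRNA1 replicate 1 (0.163) or 2 (0.149) and without shRNA2 replicate 0 (0.0826), 1 (0.193) or 2 (0.158). For Cdkn1a the difference between the hairpins was 0.0045 (95% interval -0.29 to 0.29), for Cdkn1b -0.0017 (-0.28 to 0.28), for Gadd45b -0.15 (-0.45 to 0.15) and for Trp53 -0.024 (-0.17 to 0.12). The interval of Gadd45a was much wider, from -0.71 to 0.86 around 0.075. Decr2 was lower with shRNA2 than with shRNA1 by 1.66 (adjusted p = 0.0233). None of the 4 risen genes was called between the hairpins, and a relation of these genes to the Decr2 level was not tested. The Decr2 level cannot be told apart from other differences between the hairpins.

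**Figure D3:**
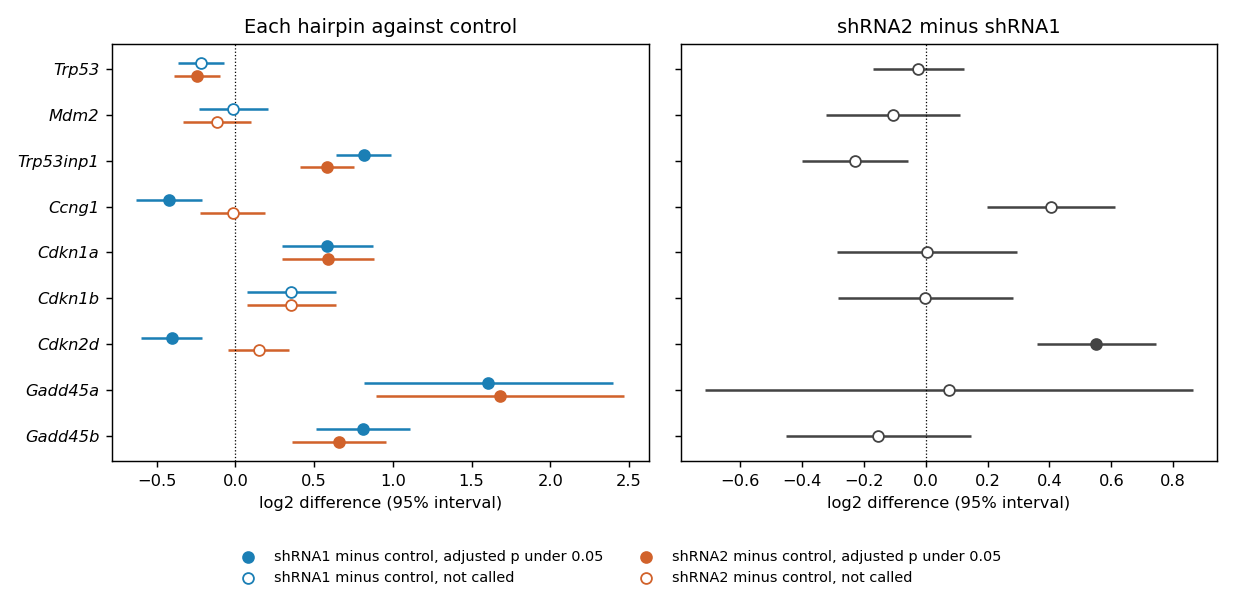
Log2 difference (x axis) with its 95% interval for the 9 genes (y axis), each hairpin against control on the left and shRNA2 minus shRNA1 on the right; filled points passed at an adjusted p under 0.05. The 4 genes filled in both colours are Trp53inp1, Cdkn1a, Gadd45a and Gadd45b, and on the right Cdkn2d alone is filled, at 0.55.

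The authors' deposited table called the same genes: 6 of the 9 with shRNA1 and 5 with shRNA2, all of them among the calls made here. For Gadd45a the authors' deposited table gave adjusted p-values of 0.0463 and 0.0375.

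Most other targets of p53 did not pass. Of 35 listed genes of this kind besides those above, 28 did not pass in the mean contrast, 7 rose and 0 fell, with a median of 0.16 beside -0.00057 over all genes, of which 9.69% were called higher and 7.89% lower (30.3% called with the replicate block). Of the 35, 6 passed as higher with shRNA1 and also with shRNA2, and 0 as lower with both. Of all genes, 4.54% were called higher with both hairpins and 3.01% lower with both. The gene of the mTORC1 inhibitor Ddit4 rose by 1.41 in the mean (SE 0.11, adjusted p = 0.000332), and Sesn2, a sensor of leucine and stress, by 1.59 (SE 0.23, adjusted p = 0.00299); both are also known targets of Atf4. Ccng2, the cyclin G2 gene, rose by 0.63 (SE 0.11, adjusted p = 0.00569), and Ddb2, a DNA damage binding protein, by 0.91 (SE 0.19, adjusted p = 0.0133). The level of Ddb2 was low, with a mean log2 value of 2.24, below that of Gadd45b. The other 3 that rose, outside the rule for named genes and given to complete the count, were Cpt1c, a brain-type carnitine palmitoyltransferase, by 0.87 (adjusted p = 0.0198), Rrm2b, a ribonucleotide reductase subunit, by 0.54 (adjusted p = 0.0152), and Sesn1, a relative of Sesn2, by 0.40 (adjusted p = 0.0292). The 28 that did not pass ran from -0.58 for the glutaminase gene Gls2 (adjusted p = 0.128) to 0.95 for the cell death gene Bbc3 (adjusted p = 0.0644). The number of risen targets was 3 without control replicate 1, and it was 15 with 4 fallen in the replicate block, 13 with 6 fallen without the libraries numbered 0, and 9 with 4 fallen without shRNA1 replicate 0. Of all genes, 5.72%, 30.3%, 41.4% and 24.5% were called in either direction in these 4 fits. With the lowest 25% of genes removed the number of risen targets was 6, where 17.3% of the genes tested were called.

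Of 28 regulators of p53, 3 fell in the mean, 0 rose and 25 did not pass, with a median of -0.12, where 7.89% of all genes were called lower and 9.69% higher. Topors, a ubiquitin and SUMO ligase that acts on p53, fell by 0.41 (SE 0.053, adjusted p = 0.00234), and Trim28, a corepressor that works with Mdm2, by 0.39 (SE 0.063, adjusted p = 0.00502). The number that fell was 2 without control replicate 0, 1 or 2, fits in which 14%, 5.72% and 5.86% of all genes were called in either direction. It was also 2 without shRNA2 replicate 2 (1327 of 10762 genes called). It was 5 without shRNA1 replicate 0 (24.5% of all genes) and with the block (30.3%), and 6 without the libraries numbered 0 (41.4%), where 2 rose.

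Around the kinases that CDK inhibitors act on, 33 genes of cyclins, CDKs, RB proteins, E2F factors and their regulators were measured. The list mixes genes that drive the cell cycle with genes that hold it, so its counts have no single meaning for growth. For the mean contrast, 27 did not pass, 5 fell and 1 rose, and the median was -0.092, beside the same 7.89% of all genes lower and 9.69% higher. Ccnd1, the cyclin D1 partner of Cdk4 and Cdk6, fell by 0.71 (SE 0.077, adjusted p = 0.00123), with -0.64 for shRNA1 and -0.78 for shRNA2. Cdc25a, the phosphatase that activates Cdk2, fell by 0.45 (SE 0.063, adjusted p = 0.00288), and Ccne1, the cyclin E1 partner of Cdk2, by 0.42 (SE 0.077, adjusted p = 0.00869). Outside the rule for named genes and to complete the count, Tfdp1 was at -0.26 (adjusted p = 0.0349) and E2f6 at -0.23 (adjusted p = 0.0357). The 1 that rose was Pkmyt1, a kinase that inhibits Cdk1, at 0.27 (adjusted p = 0.039). The number that fell was 3 without any 1 of the control replicates 0, 1 and 2, fits in which 14%, 5.72% and 5.86% of all genes were called in either direction. It was also 3 without shRNA2 replicate 1 or 2 (1310 and 1327 of 10762 genes called). It was 9 without shRNA1 replicate 0, 11 with the replicate block and 14 without the libraries numbered 0, where the shares were 24.5%, 30.3% and 41.4%. The number that rose was 3 in each of these fits and 0 without any 1 of the control replicates. Of the other INK4 and Cip/Kip genes Cdkn2c was the 1 analysed, with a difference of 0.046 (SE 0.071, adjusted p = 0.696).

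Factors that set the transcription and the turnover of CDK inhibitors gave 4 fallen, 1 risen and 18 not passing among 23 genes, with a median of -0.036, against 7.89% lower and 9.69% higher among all genes. Dtl, which brings p21 to the CUL4 ubiquitin ligase, fell by 0.37 (SE 0.075, adjusted p = 0.0108), and Ddb1, the adaptor of that ligase, by 0.29 (SE 0.065, adjusted p = 0.0181). Here 0 fell without control replicate 1 or 2, where 5.72% and 5.86% of all genes were called in either direction. The number was 2 without control replicate 0 (14% of all genes). It was also 2 without shRNA2 replicate 0 or 1 (1755 and 1310 of 10762 genes called). With the replicate block 6 fell and 3 rose (30.3% of all genes called). Without the libraries numbered 0, 6 fell and 4 rose (41.4%). The number that rose was 0 without control replicate 1 or 2.

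Partners of the GADD45 proteins include the p38 and JNK kinase cascades and repair enzymes. Of 18 genes 5 fell, 1 rose and 12 did not pass, with a median of -0.15. Among all genes 7.89% were called lower in this contrast and 9.69% higher. Apex1, an endonuclease of base excision repair, fell by 0.50 (SE 0.066, adjusted p = 0.00235), and Mapk14, which encodes p38 alpha, by 0.41 (SE 0.079, adjusted p = 0.00968). Map2k6, a kinase that activates p38 and was chosen after its values were seen, fell by 1.09 with shRNA1 (adjusted p = 0.00166), was at -0.18 with shRNA2 (adjusted p = 0.347) and differed between the hairpins (adjusted p = 0.0184). The number that fell was 2 without control replicate 1 or 2, where 5.72% and 5.86% of all genes were called in either direction. It was 3 without shRNA2 replicate 2 (1327 of 10762 genes called) and 8 without the libraries numbered 0 (41.4% of all genes). The number that rose was 4 with the replicate block, beside 6 fallen (30.3% of all genes), and 3 without the libraries numbered 0. It was 0 without control replicate 1.

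**Figure D4:**
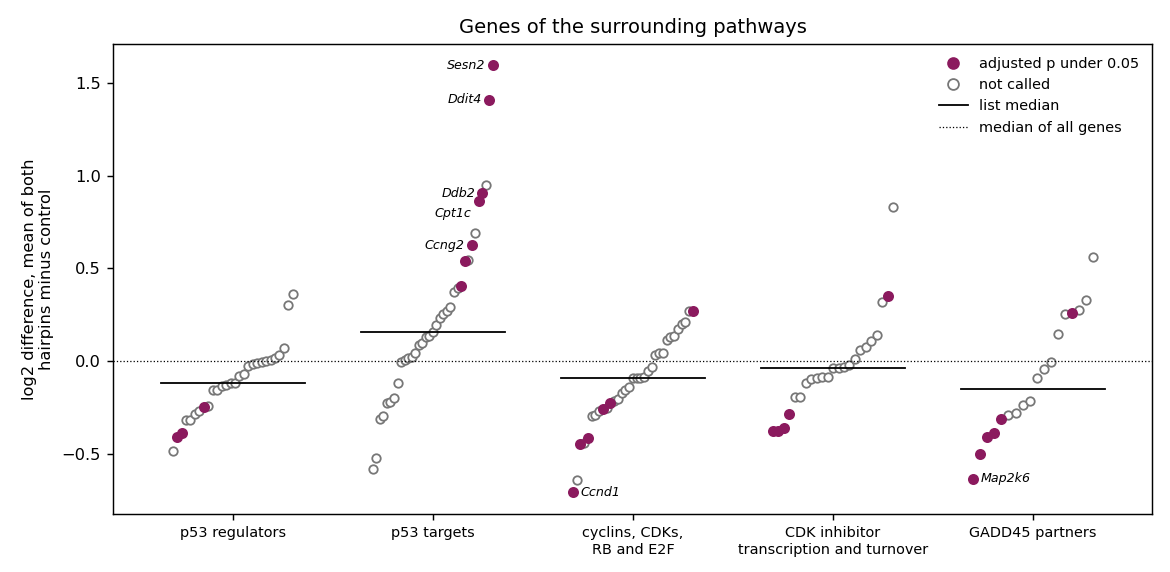
Log2 difference of the mean of both hairpins from control (y axis) for every measured gene of 5 surrounding gene groups (x axis), sorted within a group; filled points passed at an adjusted p under 0.05, lines are group medians and the dotted line is the median of all genes. Sesn2 and Ddit4 stand highest among the p53 targets, at 1.59 and 1.41, and Ccnd1 lowest among the cell cycle genes, at -0.71.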

How the data were processed

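Per the submitters' processing notes, kallisto, FastQC and limma were used, with no versions; build, annotation, strand and filter were not given in the sources used here. Per the file headers, the authors deposited 1 log2 value per gene and library, with their log2 fold changes, t scores and p-values; the scores were not used, and the p-values only describe the authors' own table. The powers of 2 summed to between 969465 and 1045849 per library. Library columns carry short codes, and the hairpin of each was read from the headed fold changes, which matched the assigned columns within 0.05 in 99.95% (shRNA1) and 99.7% (shRNA2) of genes. Symbols came from Ensembl identifiers (10759 matched), and gene positions from GENCODE M21 on GRCm38.

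The log2 values were fitted with limma 3.58.1 in R 4.3.3, all 9 libraries, a mean per group and an intensity trend, for 4 contrasts, and the fit was tested on simulated data. Errors are SE, and intervals are 95%. Same-numbered libraries of different groups had correlated deviations from their group means (r from 0.126 to 0.644 across genes, 9 pairs), and the numbers were used as a block for that reason. Differently numbered pairs ran from -0.629 to 0.531, so the data set number 0 apart but do not show that numbers 1 and 2 pair the libraries, and the labels do not say what a number marks.

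Alternatives were the replicate block, only the groups compared, no trend, centred libraries, removal of the lowest 25% of genes, a pseudocount of 1, omission of the libraries numbered 0 and of each library. Named were all members, up to 4 genes of each list called with both hairpins, by adjusted p in the mean, and, by Pearson r, the 2 genes most like a member among plain symbols above the median level. These most similar genes are given above for Gadd45a, Trp53, Cdkn1b and Cdkn2d only. For Cdkn1a they were Lrrc75a (r = 0.982) and Acadl (0.971), and for Trp53inp1 Myadm (0.971) and Emb (0.969). For Gadd45b they were Ywhag (0.962) and Mcfd2 (0.959), and for Ccng1 Cs (0.945) and Gdpd1 (0.933). For Mdm2 they were Fam172a (0.963) and Nfkb1 (0.955). Each r is among the highest of 5314 or 5315 candidates and includes the differences between groups, so it is a description. The members and lists were chosen with earlier results of these data known. The motifs were chosen with these genes in view, and the p53 element was made stricter after its first matches were seen.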

Additional observations from a re-analysis of the deposited data

Results flagged for a closer look

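Cdkn2d, the INK4 inhibitor p19, is given a closer look because the effect of the hairpins on it differed in a test of the difference itself: shRNA2 stood 0.55 above shRNA1 on the log2 scale (limma adjusted p = 0.0378), higher in 3 of 3 libraries. The adjusted p ran from 0.00196 to 0.193 over 16 alternatives, 8 of which kept the call. Groups of 3 libraries were too small to test for single outlying libraries.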

How the results depend on the processing

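The number of the 9 genes called stayed within 1.5 times its value with the replicate block in all 4 contrasts (8 with shRNA1, 6 with shRNA2, 6 in the mean and 1 between the hairpins, against 6, 5, 5 and 1), with no intensity trend, centred libraries, the lowest 25% of genes removed and a pseudocount of 1. The replicate block also raised the share of all genes called. It was 24.6% with shRNA1, 24% with shRNA2 and 30.3% in the mean, against 12.4%, 12.9% and 17.6%. Between the hairpins the block called 201 of 10762 genes, against 49. With only the groups compared the number of the 9 genes called was 3 for shRNA1 and 0 between the hairpins. Without the libraries numbered 0 it was 8 in the mean and 2 between the hairpins. With 1 library left out it ran from 2 to 7 for shRNA1, from 1 to 6 for shRNA2, from 4 to 6 in the mean and from 0 to 2 between the hairpins; a group left with 2 libraries is assumed to vary like the others. Beside Cdkn1b and, with shRNA1, Trp53, the block changed no call of the 9 genes. Values near 0 changed sign, none of them called. Without the libraries numbered 0 these were Mdm2 with shRNA1 (0.058) and Gadd45b between the hairpins (0.017). With 1 library left out, Mdm2 ran from -0.074 to 0.078 with shRNA1 and Ccng1 from -0.12 to 0.039 with shRNA2, and between the hairpins Gadd45a ran from -0.26 to 0.47, Cdkn1a from -0.053 to 0.103, Cdkn1b from -0.14 to 0.083 and Trp53 from -0.044 to 0.0025. The mean of both hairpins has no fit with only the groups compared, since it uses all 3. The share of all genes called moved as well: for shRNA1 it was 12.4%, 6.27% with only the groups compared, 34.5% without the libraries numbered 0 and between 3.05% and 14.7% with 1 library left out. For shRNA2 it was 12.9%, 16.8% with only the groups compared, 37.3% without the libraries numbered 0 and between 3.77% and 22.8% with 1 library left out. In the mean it was 17.6%, 41.4% and between 5.72% and 24.5%, and between the hairpins 0.455%, 8.87% and between 0.0279% and 0.873%, with 0.0558% for only the groups compared. The causes were not tested. Depth is unknown, so the counting error of Gadd45b, the lowest of the 9 genes, cannot be given.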
